A study of Mus musculus with 6 samples.

Results

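The miR-465 family is a group of near-identical mouse microRNAs (miRNAs) encoded by a row of hairpins on the X chromosome. In the deposited miRNA table of small extracellular vesicles (sEVs) from mouse islets, its members were taken as every row named miR-465 followed by a, b, c or d, whichever arm of the hairpin the row holds. The rule gave 7 of the 718 rows, which are 4 entries of the 3p arm (miR-465a-3p, miR-465b-3p, miR-465c-3p and miR-465d-3p) and 3 of the 5p arm (miR-465a-5p, miR-465b-5p and miR-465c-5p). The family was selected on measured levels, since mmu-miR-465b-3p, mmu-miR-465b-5p and mmu-miR-465c-5p were known to be higher in sEVs of one of the groups compared here. The difference between the groups is therefore given as a description, and no p is given for it.

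The libraries came from sEVs that islets of wild-type C57/B6J mice released into culture medium. Mice were fed a normal chow diet (NCD) or a high-fat diet (HFD), the latter as a model of the stage at which β cells compensate for a rising demand for insulin. The vesicles are called normal islet-derived sEVs (nid-sEVs, n = 3 libraries) and adaptive islet-derived sEVs (aid-sEVs, n = 3 libraries). The labels give no age or sex for these mice and do not say how many mice gave islets to a library, so the spread between libraries may be partly technical. Whole islets were cultured, so the vesicles can come from any cell of the islet preparation.

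A miRNA gene is transcribed into a hairpin that Dicer cuts into a short duplex, and either strand of it, the 5p or the 3p arm, can be loaded onto an Argonaute protein. Bases 2 to 8 of the loaded strand, the seed, pair with target messenger RNAs, so miRNAs with the same seed can bind the same sites. The miR-465 genes belong to a fast-evolving, X-linked group of miRNAs related to miR-506 that lies between Slitrk2 and Fmr1 and is known mainly from the testis and its germ cells.

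The mature sequences are shown because they decide which members a short read can tell apart. They are RefSeq sequences on the GRCm38.p6 assembly, printed 5′ to 3′ with the seed in capitals. All 7 listed members matched by name. The 5p arm of miR-465d, which is not a row of the table and was not analysed here, is shown for comparison.
miR-465a-5p: uAUUUAGAauggcacugauguga
miR-465b-5p: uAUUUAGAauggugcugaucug
miR-465c-5p: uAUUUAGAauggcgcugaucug
miR-465d-5p: uAUUUAGAaugguacugauguga
miR-465a-3p, miR-465b-3p and miR-465c-3p: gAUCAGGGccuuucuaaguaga
miR-465d-3p: uGAUCAGGgccuuucugaguaa

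The 5p arms shared the seed AUUUAGA and differed outside it. With positions counted from 1 at the 5′ end of miR-465b-5p, miR-465c-5p carried the single substitution U13C, miR-465a-5p carried U13C, G14A and C20G, and miR-465d-5p carried G14A and C20G. Members a and c of the 5p arm were therefore 86.4% and 95.5% identical to miR-465b-5p over the 22 bases compared. The 3p arms of miR-465a, miR-465b and miR-465c were identical over their 22 bases, with the seed AUCAGGG. In miR-465d-3p an extra base at the 5′ end moved the seed to GAUCAGG, and the rest carried A16G and G21A, counted from the 5′ end of miR-465b-3p. Among the 424 rows of the table with a RefSeq mature sequence, and among all 1679 mature names in RefSeq, 0 miRNAs outside the family had any of these 3 seeds.

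The hairpins are shown because identical copies make the source of a read unknowable even for an arm with its own sequence. Capitals mark the annotated mature arms, the 5p arm first.
Mir465, the source of miR-465a, chrX:66839052-66839125: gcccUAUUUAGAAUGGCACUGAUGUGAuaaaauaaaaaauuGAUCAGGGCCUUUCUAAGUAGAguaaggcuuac
Mir465b-1, chrX:66829202-66829280, and Mir465b-2, chrX:66835764-66835842: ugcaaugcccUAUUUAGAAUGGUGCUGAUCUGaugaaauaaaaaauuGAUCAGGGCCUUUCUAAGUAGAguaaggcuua
Mir465c-1, chrX:66825955-66826035, and Mir465c-2, chrX:66832517-66832597: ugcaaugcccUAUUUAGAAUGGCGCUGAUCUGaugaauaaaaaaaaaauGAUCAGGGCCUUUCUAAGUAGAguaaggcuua
Mir465d, chrX:66822656-66822713: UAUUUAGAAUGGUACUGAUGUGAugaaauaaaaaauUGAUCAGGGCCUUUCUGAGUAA

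The 6 hairpins lie on the minus strand within 16.5 kb, chrX:66822656-66839125 on GRCm38.p6, and the GENCODE M21 annotation places them at the same positions. The b and c genes alternate along this stretch. Mir465b-1 and Mir465b-2 are identical over their whole hairpins, and so are Mir465c-1 and Mir465c-2. In this annotation 0 other genes overlap the stretch, so the hairpins are intergenic. The nearest protein-coding genes are Slitrk2, 161 kb away at lower coordinates, and Gm1140, 844 kb away at higher coordinates.

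Levels are given as RPM, the reads of an entry per 1000000 reads of its library, and were turned back into whole reads. Library totals ran from 50534 to 129152 reads in nid-sEVs and from 122266 to 519315 reads in aid-sEVs. These totals are the reads behind the RPM values, nearly all of them in listed rows. They do not give the number of reads sequenced, and depth below refers to these totals. The limit of detection was set at 3 reads. In replicate order this is 23.2, 45.7 and 59.4 RPM for nid-sEVs and 5.78, 8.52 and 24.5 RPM for aid-sEVs. Intervals and limits cover counting error only. All 6 islet endocrine miRNAs of a marker list were present, with summed levels of 74710 to 359916 RPM in nid-sEVs and 153542 to 176858 RPM in aid-sEVs. Their most abundant member was miR-375-3p, the typical miRNA of β cells.

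The miR-465 family was found mainly in aid-sEVs. Summed over the 7 members, aid-sEV replicates 1, 2 and 3 held 1211, 1090 and 276 family reads, and nid-sEV replicates 1, 2 and 3 held 0, 3 and 1. In RPM the aid-sEV libraries stood at 2332, 3094 and 2257, a mean of 2561 ± 463 (SD, n = 3), and the nid-sEV libraries at 0, 45.7 and 19.8. The family made up 0.233%, 0.309% and 0.226% of the reads behind RPM in aid-sEVs. The groups did not overlap, and every nid-sEV library was at or below its limit of detection.

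The smaller read totals of nid-sEVs bound how low their level can be said to be. At the mean aid-sEV level, the nid-sEV libraries would hold 331, 168 and 129 family reads at their own depths. The deepest nid-sEV library, with 129152 reads, had 0 family reads, which at the limit of 3 reads allows up to 23.2 RPM, whereas the shallowest aid-sEV library, with 122266 reads, had 276. With the reads of each group pooled, the family was 159-fold higher in aid-sEVs (95% counting interval 62.0 to 584), a ratio that rests on 4 reads in nid-sEVs.

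**Figure D1:**
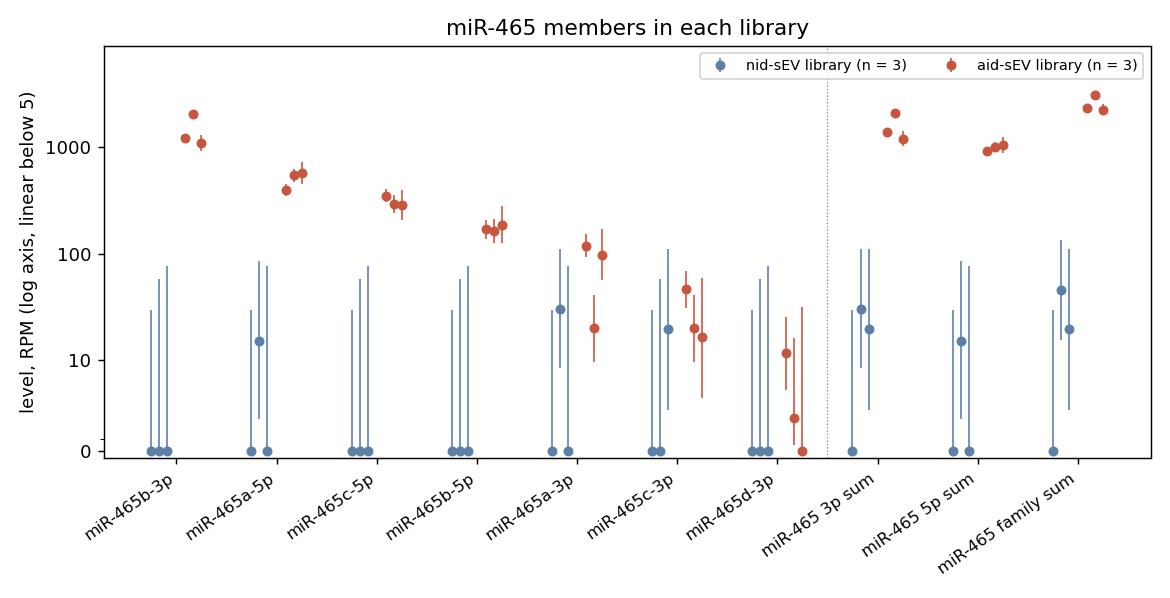
Level of each miR-465 member, of both arm sums and of the family sum in every library, in RPM on a log axis that is linear below 5. Points are single libraries (blue nid-sEVs, red aid-sEVs, n = 3 each) in replicate order and bars are 95% Wilson counting intervals, which for 0 reads end somewhat above the limit of 3 reads (29.7 RPM for nid-sEV replicate 1). The family sum sits between 2257 and 3094 RPM in aid-sEVs and between 0 and 45.7 RPM in nid-sEVs, whereas miR-465a-3p, miR-465c-3p and miR-465d-3p have overlapping libraries.

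The 3p arm with the shared sequence was most often listed as miR-465b-3p. This entry stood at 1234, 2047 and 1096 RPM in aid-sEVs (641, 721 and 134 reads) and had 0 reads in each nid-sEV library. Its mean of 1459 ± 514 RPM (SD, n = 3) was at least 24.6-fold above the highest nid-sEV limit of 59.4 RPM. In aid-sEVs it ranked 70, 55 and 72 of the 718 entries, in replicate order.

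The other rows of the 3p arm were low. miR-465a-3p stood at 119, 19.9 and 98.1 RPM in aid-sEVs (62, 7 and 12 reads) and at 0, 30.5 and 0 RPM in nid-sEVs (0, 2 and 0 reads). Its groups overlapped, because nid-sEV replicate 2, below its limit of detection of 45.7 RPM, was listed above aid-sEV replicate 2. miR-465c-3p stood at 46.2, 19.9 and 16.4 RPM in aid-sEVs (24, 7 and 2 reads) and at 0, 0 and 19.8 RPM in nid-sEVs (0, 0 and 1 reads). Here nid-sEV replicate 3 was listed above aid-sEV replicate 3, with both below their limits of detection. Both overlaps rest on 1 or 2 nid-sEV reads, too few to read as an order of levels.

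miR-465d-3p, the member with the shifted seed, was at the edge of detection even in aid-sEVs, at 11.6, 2.84 and 0 RPM (6, 1 and 0 reads). It had 0 reads in the nid-sEV libraries. At the mean aid-sEV level these would hold 0.620, 0.315 and 0.242 reads, so a difference was not detectable at this depth.

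The 5p arm was led by miR-465a-5p, which stood at 399, 548 and 573 RPM in aid-sEVs (207, 193 and 70 reads) and at 0, 15.2 and 0 RPM in nid-sEVs (0, 1 and 0 reads). The pooled ratio was 116 (95% counting interval 20.7 to 4593). The groups did not overlap, and the nid-sEV level rested on a single read of replicate 2.

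miR-465c-5p stood at 352, 292 and 286 RPM in aid-sEVs (183, 103 and 35 reads) and had 0 reads in nid-sEVs. Its mean of 310 ± 36.5 RPM (SD, n = 3) was at least 5.23-fold above the highest nid-sEV limit. miR-465b-5p, which differs from it by a single base, stood at 169, 165 and 188 RPM in aid-sEVs (88, 58 and 23 reads), also with 0 reads in nid-sEVs and at least 2.93-fold above that limit. Both were steady, with all 3 aid-sEV libraries close together and apart from nid-sEVs.

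A linear model across all 718 entries (limma on log2(RPM + 1)) called 4 of the 7 members higher in aid-sEVs (miR-465b-3p, miR-465a-5p, miR-465c-5p and miR-465b-5p) and 0 lower, against 15.6% of all entries called higher. A call needed a Benjamini-Hochberg adjusted p below 0.05 and a log2 fold change above 1. For the same 4 members the libraries of the groups did not overlap, with aid-sEVs higher, against 24.2% of all entries. These comparisons include the values that chose the family, so nothing is read from either count. The call of miR-465a-5p was lost without aid-sEV replicate 2 and when all libraries were thinned to the smallest, with 3 members called in both cases. A call was gained for miR-465c-3p without nid-sEV replicate 3 and for miR-465d-3p without aid-sEV replicate 3, with 5 members called in both cases.

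On the log2(RPM + 1) scale the summed family level differed by 8.0 between the groups. This size depends on the pseudocount, because 1 read in nid-sEVs is worth 7.74 to 19.8 RPM. Replicate 1 of nid-sEVs, with 0 family reads, enters as 0 although its limit of detection is 23.2 RPM. With a pseudocount of 10 the difference was 6.64. Individual libraries were at 0, 5.54 and 4.38 in nid-sEVs and at 11.2, 11.6 and 11.1 in aid-sEVs. The median log2 fold change over all entries was 1.11 on the same scale, so the family stood 6.89 above it. That median is of single rows, whereas the family level is a sum. It also moved with the setting, from -0.02 with edgeR over the 245 entries that passed its filter to 1.78 with a pseudocount of 0.1. Without that filter edgeR gave 0.82 over all entries. Over the 7 members the median was 7.45. It was 3.77 over 6 members when those at 0 reads in nid-sEVs were set to their lower bound and miR-465d-3p, which has no bound, was left out.

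Within aid-sEVs the rows had the following order of levels, given as a description. Mature members have nearly the same length, 22 or 23 bases, so RPM was not corrected for length, and how well each sequence was captured in the libraries was not measured. The mean RPM fell from 1459 for miR-465b-3p to 506 for miR-465a-5p, 310 for miR-465c-5p, 174 for miR-465b-5p and 79.1 for miR-465a-3p, and in each of these 4 steps the ranges over the 3 libraries were apart. Further down, miR-465a-3p and miR-465c-3p (mean 27.5 RPM) overlapped. miR-465c-3p lay above miR-465d-3p (mean 4.80 RPM), with 33 against 7 reads in all. The places of miR-465a-3p, miR-465b-3p and miR-465c-3p depend on how reads of their common sequence were divided between these rows. The 5p rows differ in sequence, but whether their order depends on how reads were assigned was not tested.

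Because near-identical copies can exchange reads, the arms were also summed. The 3p arm summed to 1411, 2089 and 1210 RPM in aid-sEVs (1570 ± 461, SD, n = 3) and the 5p arm to 920, 1005 and 1047 RPM (991 ± 64.4). In nid-sEVs the 3p arm summed to 0, 30.5 and 19.8 RPM and the 5p arm to 0, 15.2 and 0 RPM. The 5p level was thus much the same in all 3 aid-sEV libraries, whereas the 3p level was highest in replicate 2.

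Both arms were present in quantity, with more 3p than 5p reads in each aid-sEV library. The 3p share of family reads was 60.5% in replicate 1 (95% Wilson interval 57.7 to 63.2), 67.5% in replicate 2 (64.7 to 70.2) and 53.6% in replicate 3 (47.7 to 59.4). The mean share was 60.6% ± 6.95 (SD, n = 3), and the interval of replicate 3 includes equal shares. The libraries differed from each other beyond counting error, with adjusted p of 0.00076 for replicate 1 against 2, 0.042 for 1 against 3 and 6.6e-05 for 2 against 3 (two-sided Fisher's exact tests on reads, adjusted over the 3 pairs). These tests compare the libraries and not the diets. The make-up of each pair of libraries of a group over the entries in general also differed beyond counting error. Whether the arm shares of other miRNAs differed between libraries was not tested. With 4 family reads in nid-sEVs, their arm shares could not be estimated.

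**Figure D2:**
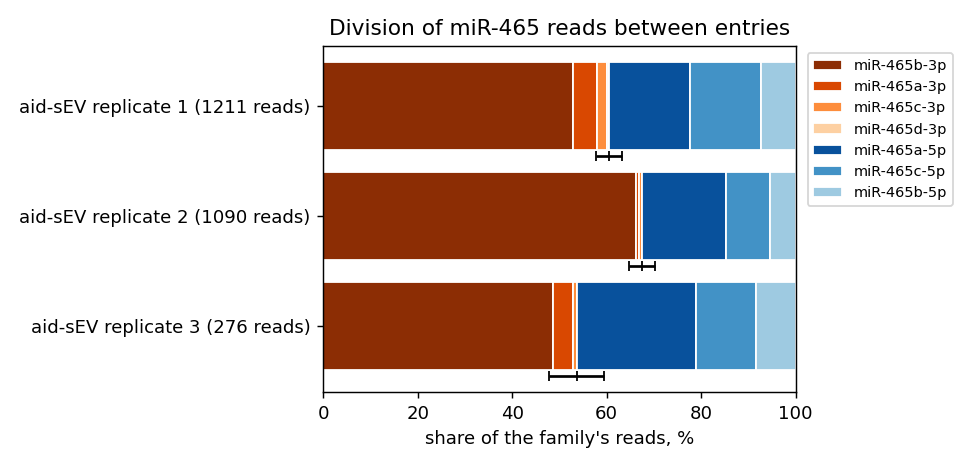
Share of the family's reads, in %, taken by each member in the 3 aid-sEV libraries, with 3p entries in brown to orange and 5p entries in blue. The black mark under each bar is the summed 3p share with its 95% Wilson interval. The 3p share was 60.5%, 67.5% and 53.6%, and miR-465b-3p made up most of it in each library.

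The 3p reads were divided between rows that their mature sequences do not tell apart. The mature sequence of miR-465a-3p, miR-465b-3p and miR-465c-3p is the same, as printed above, yet miR-465b-3p held 87.4%, 98.0% and 90.5% of the 3p reads in aid-sEV replicates 1, 2 and 3. miR-465a-3p held 8.46%, 0.951% and 8.11%, and miR-465c-3p held 3.27%, 0.951% and 1.35%. The listed level of miR-465b-3p was 10.3, 103 and 11.2 times that of miR-465a-3p. How reads were divided between rows with the same mature sequence is not given in the sources used here, so the levels of these 3 rows are uncertain one by one, and their sum is the safer value.

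The 5p rows can be told apart by sequence, down to the single base that separates miR-465b-5p from miR-465c-5p. In aid-sEV replicates 1, 2 and 3, miR-465a-5p, from a gene with 1 copy, held 43.3%, 54.5% and 54.7% of the 5p reads. miR-465c-5p, from 2 identical hairpins, held 38.3%, 29.1% and 27.3%, and miR-465b-5p, also from 2 identical hairpins, held 18.4%, 16.4% and 18.0%. The order was the same in all 3 libraries, and the share of miR-465b-5p varied least. Differences between libraries in these shares were not tested.

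The rows named miR-465a and miR-465b thus differed in which arm was listed higher. miR-465a-5p was above miR-465a-3p in each aid-sEV library, miR-465c-5p was above miR-465c-3p, and miR-465b-3p was above miR-465b-5p. Since the 3p rows share a sequence, these ratios within a gene carry the same uncertainty as the rows.

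The hairpins of the family belong to a larger X-linked group, and a list of 16 neighbouring hairpins of that group (miR-201, miR-463, miR-470, miR-471, miR-509, miR-547, miR-741, miR-742, miR-743a, miR-743b, miR-871, miR-878, miR-880, miR-881, miR-883a and miR-883b), drawn up with earlier results of these data known, was set beside it. Mature arms of these hairpins made up 14 rows, and miR-201, miR-463, miR-509, miR-547, miR-742 and miR-883b had no row. The limma fit called 11 of the 14 higher in aid-sEVs and 0 lower, against 15.6% of all entries. That count was 4 without nid-sEV replicate 2 and when libraries were thinned to the smallest, where 33 and 32 of all 718 entries were called higher. The median log2 fold change of the 14 was 5.13, against 1.11 over all entries, and it was 6.37 over the 7 rows that have reads in nid-sEVs or a lower bound.

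The most abundant neighbours in aid-sEVs were miR-741-3p at 4552, 6936 and 7009 RPM and miR-871-3p at 3765, 6433 and 5464 RPM. They were followed by miR-470-5p at 1812, 2632 and 1947 RPM. miR-743b-3p, miR-743a-3p and miR-881-3p had lower means of 456 ± 129, 206 ± 11.2 and 179 ± 39.4 RPM (SD, n = 3). In nid-sEVs miR-741-3p reached at most 60.9 RPM and miR-871-3p 139 RPM, from 4 and 7 reads. miR-465b-3p ranked 4 of the 21 rows of the whole group in each aid-sEV library, after miR-741-3p, miR-871-3p and miR-470-5p.

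Summed, the 14 neighbour rows stood at 14565 ± 3132 RPM in aid-sEVs (SD, n = 3) and at a mean of 154 RPM in nid-sEVs, from 28 reads. Their pooled ratio was 120 (95% counting interval 83.2 to 181), against 159 (62.0 to 584) for the miR-465 family, and the intervals overlap widely. The family made up 17.4%, 15.4% and 12.6% of the RPM of the whole group in aid-sEV replicates 1, 2 and 3. The share was highest in the deepest library and lowest in the shallowest, and these differences were not tested.

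**Figure D3:**
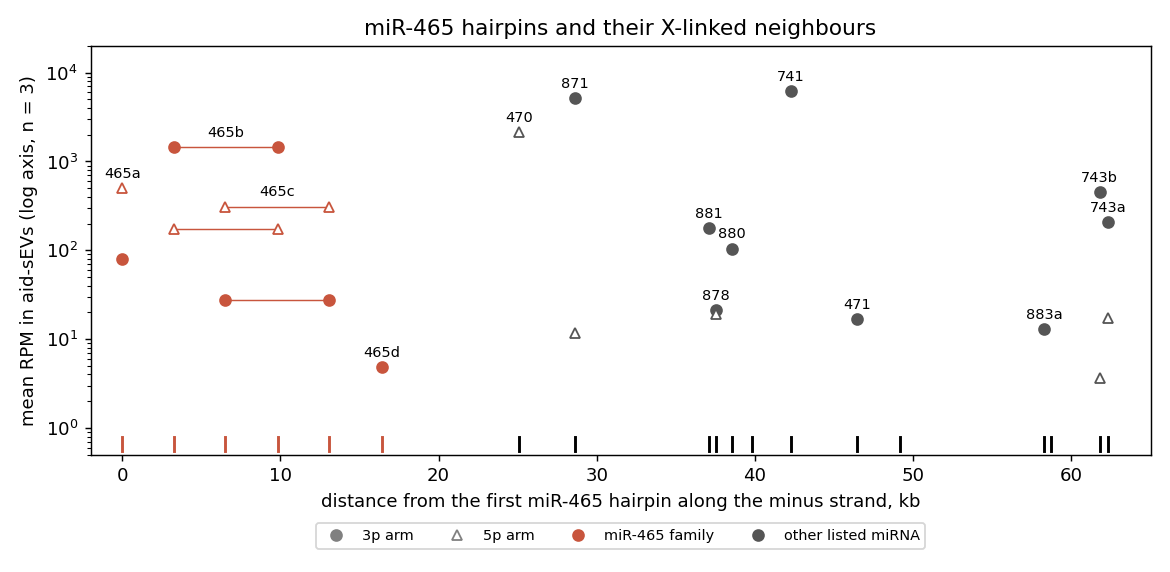
Mean RPM in aid-sEVs (log axis, n = 3) of each listed 3p arm (circles) and 5p arm (triangles) against the distance of its hairpin from the first miR-465 hairpin, in kb along the minus strand. Ticks at the base mark the miR-465 hairpins in red and the neighbours on the list in black, without 3 listed hairpins that lie much farther off, and a line joins the copies of a gene whose reads cannot be told apart. The 6 miR-465 hairpins lie within 16.5 kb, and miR-741-3p and miR-871-3p are the highest points.

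The balance of arms in the family is that of a sum over genes, and the rows of these genes lean in opposite directions as listed. With aid-sEV reads pooled, miR-465b had 1496 3p and 169 5p reads by its rows, whereas miR-465a had 81 and 470 and miR-465c had 33 and 321. Since these 3p rows share a sequence, the leaning of each gene depends on how their reads were divided and is uncertain. The neighbour hairpins with both arms listed are single genes. With aid-sEV reads pooled, the 3p arm held 99.8% of reads for miR-871 (95% Wilson interval 99.7 to 99.9), 99.5% for miR-743b (98.2 to 99.9), 91.5% for miR-743a (87.1 to 94.5) and 57.1% for miR-878 (42.2 to 70.9, 24 and 18 reads). The pooled share of the miR-465 family was 62.7% (60.9 to 64.6). As a sum it lay within the interval of miR-878 and below those of the others.

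Entries outside the family were ranked by how alike their distribution over the 6 libraries was to that of the family sum. The measure is the share of an entry's RPM that would have to be moved between libraries to match the family, so 0% is the same profile. Over the 244 entries with at least 100 reads the median was 48.0%. The most alike was miR-483-5p (1.70%), which lies within the gene of insulin-like growth factor 2. Next came miR-470-5p (2.14%), miR-1983 (4.92%), miR-743a-3p (5.49%) and miR-672-5p (5.54%). Of these, miR-470-5p and miR-743a-3p are X-linked neighbours on the list and miR-672-5p is also on the X chromosome, whereas miR-483 and miR-1983 are on chromosomes 7 and 13. The family was chosen as higher in aid-sEVs, so entries with few nid-sEV reads come out alike in part by construction. With 6 libraries the ranking is a description of these libraries.

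**Figure D4:**
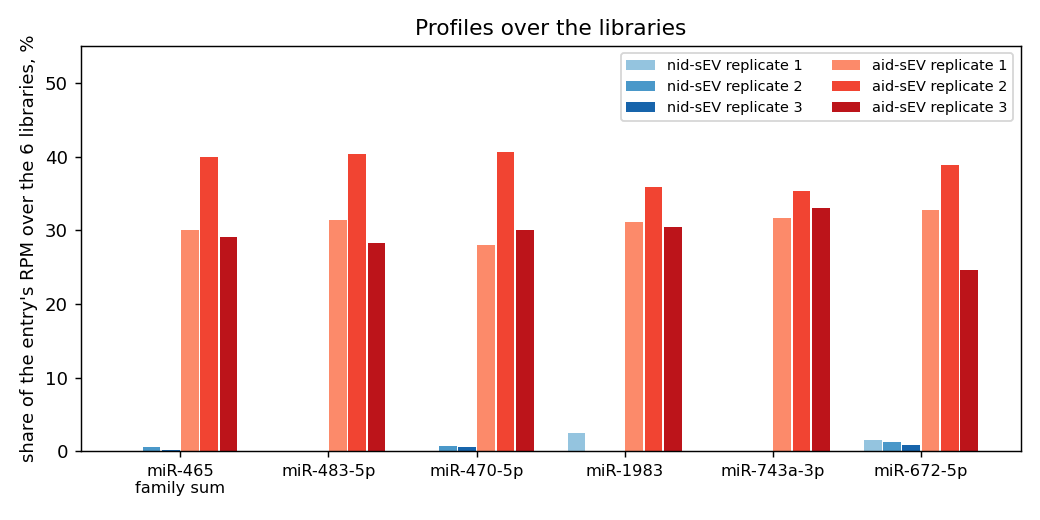
Share of each entry's RPM found in each of the 6 libraries, in %, for the miR-465 family sum and the 5 entries with the most similar profile. Blue bars are nid-sEV and red bars aid-sEV libraries. All 6 sets have nearly all of their RPM in aid-sEVs, and aid-sEV replicate 2 holds the largest share of each, 39.9% for the family.

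Because the family is known mainly from the testis, a list of testis miRNAs outside the X-linked group was checked. Of its 7 members, 2 were rows of the table, miR-34c-5p and miR-34c-3p, and their summed level was 101 to 670 RPM in nid-sEVs and 14.2 to 90.0 RPM in aid-sEVs. Only their sum was lower in every aid-sEV library, and it rests on 138 reads over all libraries. miR-34c-5p alone overlapped, at 77.4, 670 and 416 RPM in nid-sEVs and 73.2, 11.4 and 90.0 RPM in aid-sEVs. What this means for the source of miR-465 was not tested. Markers of other cells were summed in the same way, with no test. Blood cell and liver miRNAs (6 of 6 listed, led by miR-486a-5p) summed to 4611 to 10538 RPM in nid-sEVs and 414 to 1554 RPM in aid-sEVs, with no overlap. Acinar miRNAs (3 of 3, led by miR-217-5p) summed to 2533 to 8997 and 698 to 3370 RPM, and mesenchymal miRNAs (6 of 6, led by miR-143-3p) to 5798 to 25706 and 4517 to 11758 RPM, both with overlapping groups. No listed marker was at 0 in all libraries of a group. The part of these cells in the miR-465 difference was not tested. In bulk vesicle RNA, a change in which cells released the vesicles and a change in the miRNA carried per vesicle cannot be told apart.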

How the data were processed

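Small RNA libraries of islet sEVs were sequenced once each, 3 from NCD-fed and 3 from HFD-fed mice, and were grouped by their titles. The submitters' processing notes name fastp 0.23.0, HISAT2 2.2.1 and the GRCm38 build, and the reference and filters behind the rows are not given in the sources used here. The authors deposited 1 table of RPM values for 718 entries, each detected in at least 2 libraries. It also holds the authors' own fold changes and p-values, which were not used. Values divided by that of 1 read were whole for 100% of values (tolerance 0.01 reads). As planned for RPM, the test was limma 3.58.1 (R 4.3.3, trended eBayes) on log2(RPM + 1) over all entries, with group as the only term. Intervals are 95% Wilson for shares and exact for pooled ratios. edgeR 4.0.16 and DESeq2 1.42.0 on whole reads, other pseudocounts, filters, scalings and omitted libraries were alternatives. Every member, both arm sums, the 6 most abundant neighbours in aid-sEVs and the 5 most similar profiles were named by rule. Members and lists were chosen with earlier results of these data known. Replicates of a group differed beyond sampling noise. Sequences came from RefSeq.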

Additional observations from a re-analysis of the deposited data

How the results depend on the processing

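Depth limits the nid-sEV side most, since 3 reads there are worth 23.2 to 59.4 RPM. The model called 112 entries higher in aid-sEVs, and 62 with a pseudocount of 10, 69 with a mean RPM of at least 10, 32 after thinning to the smallest library, 48 and 56 with edgeR with and without its filter, and 65 with DESeq2. Leaving out a library in turn gave 33 to 150 (33 without nid-sEV replicate 2 and 61 without nid-sEV replicate 3). Members called numbered 4, with 3 to 5 across omitted libraries, 3 after thinning and 4 with edgeR and DESeq2. Neighbours called fell from 11 to 7 with a pseudocount of 10, the mean RPM filter, edgeR or DESeq2 and to 4 after thinning, and numbered 4 to 11 across omitted libraries. The mean RPM filter left 516 entries to test, with 8 neighbours and 6 members among them. The filter of edgeR left 245 entries, with 7 neighbours and 4 members. A row could pass these filters through its aid-sEV level alone. With fewer entries tested under the filters, part of the change is by construction, and the cause of the rest was not tested.

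With the replicate number as a replicate block in limma, 0 entries, 0 members and 0 neighbours were called. At an unadjusted p below 0.05 with the same fold, 148 entries and 4 members passed. The numbers gave no sign of pairing, as same-numbered deviations correlated at -0.05, 0.06 and -0.05.

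The log2 difference of the summed family, 8.0, was 6.64 to 9.14 with other pseudocounts and 6.35 to 9.12 across omitted libraries. It was 10.9 with only miR-465b-3p, miR-465b-5p and miR-465c-5p, the members that chose the family, which have 0 reads in nid-sEVs. That value therefore reflects only the aid-sEV level and the pseudocount. The mean 3p share of 60.6% became 73.9% with those 3 members, which leaves out the most abundant 5p entry, and was 57.1% to 64.0% across omitted aid-sEV libraries.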
